A study of Mus musculus with 25 samples.

Results

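The comparison described here is between morulae and 2-cell embryos of mouse strain C57BL/6 that were both grown with the small molecule written as VCD. It uses 8 of the 25 libraries of the series: 4 of 2-cell embryos and 4 of morulae, chosen by their labels and not by any measured value. Oocytes had been matured for 16 h in M16 medium and fertilized in vitro for 6 h. Embryos were then kept in G1 medium, scored as 2-cell embryos 24 h later, and moved to G2 medium at 72 h, before they became morulae. VCD had been added to M16, G1 and G2, so every library of this comparison carries it and the labels differ in the stage, with its time and medium. The sources used here give neither its full name nor its dose. Libraries with phosphate-buffered saline (PBS) in place of VCD, 4 per stage, and 5 libraries of metaphase II (MII) oocytes with VCD were used only as side values. How many embryos made up a library, and whether libraries of a group came from separate cultures or animals, is not given either. The p-values therefore measure only the spread between these samples, which may be technical.

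A mouse egg carries a large store of RNA made while the oocyte grew. After fertilization that store is degraded, in part through shortening of poly(A) tails by the CCR4-NOT complex, while the embryo's own genome is switched on in a main burst at the 2-cell stage. By the morula stage the cells flatten against each other (compaction), polarize, and begin to part into an outer layer that becomes trophectoderm, the first placental tissue, and an inner group that becomes the inner cell mass. The libraries were made with Smart-seq2, which copies polyadenylated RNA into full-length cDNA. An RNA that keeps its copies but loses its tail, and an RNA that is degraded, cannot be told apart here. Values are FPKM, the fragments of a gene divided by its length and by the total of the library. They are therefore shares of a library and not amounts per embryo, and fewer cells of a type and less RNA per cell cannot be told apart.

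The stage labels matched their markers. All 6 of the 2-cell markers (Zscan4c, Zscan4d, Zscan4f, Tcstv1, Tcstv3 and Zfp352) were lower in morulae, with a summed level of 1106 to 1579 FPKM in 2-cell libraries and 2.09 to 17.2 FPKM in morulae. All 6 morula markers (Cdx2, Krt8, Krt18, Nanog, Cldn4 and Atp1b1) were higher, with sums of 3.71 to 8.78 FPKM against 292 to 527 FPKM. Markers of cells that can be carried along stayed low. The 12 cumulus and granulosa markers summed to 9.79 to 11.3 FPKM in 2-cell libraries and 12.1 to 19.5 FPKM in morulae, the upper end mostly from Amhr2 (13.7 ± 4.09 FPKM, SD, n = 4), while Cyp19a1 was listed at 0 in all 4 morulae. The 6 sperm markers in the table summed to at most 2.15 FPKM and the 4 blood markers to at most 8.71 FPKM. The part of such cells in any result was not tested. The steps between FPKM values implied 15075832 to 20787456 counted reads or fragments in 2-cell libraries and 15304093 to 17266923 in morulae (exact two-sided permutation p = 0.2, n = 4 and 4). Libraries of a stage correlated with each other at 0.961 to 0.984 (2-cell) and 0.951 to 0.971 (morula), and across stages at 0.244 to 0.321, over the genes tested.

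Most of the expressed genome changed its share of the library between these stages. Of 12355 genes that reached 1 FPKM in at least 4 of the 8 libraries, 5060 were higher and 5419 lower in morulae (limma on log2(FPKM + 1), Benjamini-Hochberg adjusted p below 0.05). That is 84.8% of the genes tested, 41.0% in the upward and 43.9% in the downward direction, and these shares are the background against which each gene group is read below. A change of 4-fold or more on the log2(FPKM + 1) scale was called for 2228 genes upward (18.0%) and 2605 downward (21.1%). The libraries of both stages did not overlap for 79.2% of the genes tested. The median log2 fold change over all genes tested was -0.08, and the median of its absolute value 1.64. Fewer genes reached 1 FPKM in morulae (9954 ± 324, SD, n = 4) than in 2-cell embryos (11371 ± 423), and the 10 most abundant genes held 14.2% of the summed FPKM against 17.3%. For both measures the stages did not overlap (exact two-sided permutation p = 0.0286, the smallest that 4 against 4 libraries allow, adjusted p = 0.0381 over 4 measures). No gene called here was called with the opposite sign under any scaling tried. Turns of sign that did not pass the threshold were not counted. The scalings moved the median of all genes by -0.25 (median-of-ratios) or 0.18 (quantile) on the log2 scale, so small median changes of a group depend on the scaling.

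**Figure D1:**
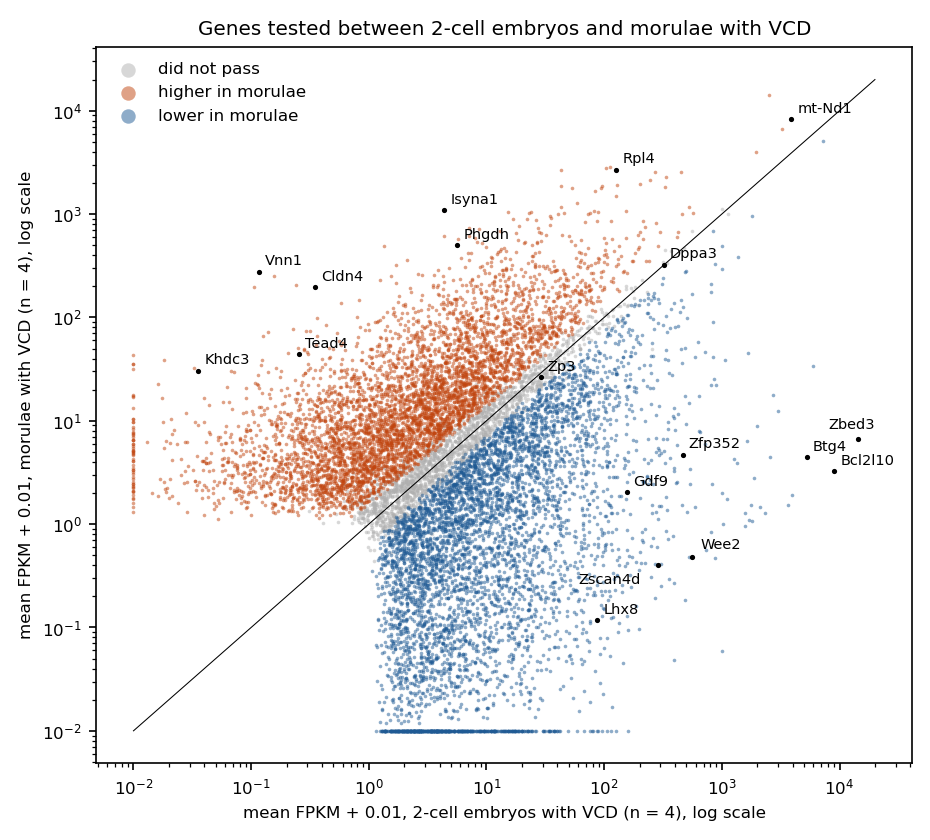
Mean FPKM of each of the 12355 tested genes in 2-cell embryos (x axis) and morulae (y axis) with VCD, 4 libraries each, on log axes after adding 0.01, coloured by the call. Genes on the lower or left edge were at 0 in all 4 libraries of a stage. Bcl2l10, Zbed3 and Btg4 lie far to the right among the most abundant 2-cell RNAs, and Vnn1, Isyna1 and Cldn4 high above the line of equal levels.

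On the log2(FPKM + 1) scale, the largest falls were of oocyte RNAs that were still among the most abundant RNAs of the 2-cell embryo. That scale limits the fall of a less abundant RNA. With a pseudocount of 0.1, Izumo1r (-6.02 here) fell by 9.05 and Lhx8 (-6.33 here) by 8.90, close to Accsl (8.96). Bcl2l10, an antiapoptotic Bcl-2 protein of oocytes, stood at 9542, 9047, 7447 and 10206 FPKM in the 2-cell libraries and at 2.85, 3.14, 5.84 and 1.198 FPKM in the morulae. Its log2 fold change was -11.16 (SE 0.29, adjusted p = 3.18e-10), and every 2-cell library lay above every morula. Zbed3, which interacts with the subcortical maternal complex under the egg's membrane, was at 17581, 14059.9, 12427 and 13188 FPKM and then at 5.97, 4.08, 10.8 and 5.56 FPKM (log2 fold change -10.94, SE 0.24, adjusted p = 2.35e-10). In 2-cell embryos it was the most abundant of the named oocyte RNAs. Btg4, the adaptor that brings the CCR4-NOT deadenylase to maternal RNA, was at 4703, 5226, 5699.7 and 5442 FPKM and then at 5.71, 2.18, 5.19 and 4.65 FPKM (log2 fold change -9.97, SE 0.23, adjusted p = 2.56e-10). A factor of maternal RNA decay was thus itself among the RNAs that fell most. The other members of the 15 largest falls were the RING-finger gene Rfpl4, the Akt coactivator genes Tcl1, Tcl1b1, Tcl1b2, Tcl1b3, Tcl1b4 and Tcl1b5, the homeobox gene Obox5, the growth factor Bmp15, the kinase Wee2, and Accsl and C86187. Their log2 fold changes lay between -10.56 and -8.29, and none overlapped between stages. The Tcl1b genes share sequence with each other (up to 34.1% of the 50-base words of Tcl1b3 occur in transcripts of other genes), so the split of reads among them is uncertain.

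Genes of the egg coat, the egg surface and oocyte signalling were lower in 11 of 13 tested cases (median log2 fold change -4.40, against -0.08 for all genes). Bmp15, a growth factor that oocytes send to the cells around them, stood at 1713, 1700.3, 1616 and 1221 FPKM and fell to 1.78, 0.647, 2.199 and 0.436 FPKM. Gdf9, its partner, went from 167, 154, 142 and 161 FPKM to 3.14, 0.792, 2.06 and 2.19 FPKM (log2 fold change -5.75, SE 0.24, adjusted p = 3.87e-09). Both genes were high in every 2-cell library and low in every morula. Izumo1r, which encodes Juno, the egg receptor for the sperm, was at 75.8, 71.9, 53.1 and 67.1 FPKM in 2-cell embryos, and at 0.1498, 0, 0 and 0 FPKM in morulae. The zona pellucida genes did not move alike. Zp1 went from 31.2 ± 5.33 to 1.15 ± 0.753 FPKM and Zp2 from 66.3 ± 10.7 to 0.962 ± 0.424 FPKM (mean ± SD, n = 4), and both fell (adjusted p = 7.75e-08 and 2.79e-09). Zp3, the third coat protein, was at 24.9, 31.1, 28.7 and 32.2 FPKM and then at 29.3, 22.8, 23.5 and 29.9 FPKM, with overlapping stages and a log2 fold change of -0.15 (SE 0.16, adjusted p = 0.417). Under median-of-ratios scaling Zp3 was called lower (-0.45, adjusted p = 0.0462). The member that rose was Cd9, a tetraspanin needed on the egg for fusion and found on many other cells, from 30.2 to 42.1 FPKM to 671 to 1155 FPKM (log2 fold change 4.71).

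For the subcortical maternal complex, a protein lattice that eggs inherit and early embryos need, 7 of 8 listed genes were lower (median -4.22). The list also counts Zbed3 and Nlrp4f. Nlrp5 fell from 69.7 ± 14.96 to 2.43 ± 0.611 FPKM, Ooep from 138 ± 62.8 to 1.88 ± 1.59 FPKM and Tle6 from 38.3 ± 14.8 to 3.55 ± 0.635 FPKM. Khdc3, which encodes the complex member FILIA, went the other way. It was at 0, 0.0469, 0 and 0.05504 FPKM in 2-cell embryos and at 22.1, 39.6, 31.8 and 28.6 FPKM in morulae, so that no library of one stage came near the other (log2 fold change 4.91, SE 0.19, adjusted p = 2.87e-09). A share of 34.1% of its 50-base words occurs in transcripts of other annotated genes. In the same list, Nlrp4f was at 578, 544, 527 and 361 FPKM and then at 1.36, 0.336, 1.62 and 1.82 FPKM. Other oocyte genes of the Nlrp, Oog and Oas1 families were lower in all 16 tested cases (median -6.36). Among them Nlrp9b and Nlrp4a fell by 6.58 and 6.79 on the log2 scale. Oog1 fell by 7.67, with 88.96% of its words shared with its copies. Of 13 tested genes listed as oocyte transcription factors 10 were lower (median -4.63). Not all of the 13 were oocyte RNAs here, and 10 counted as present in MII oocytes. Obox3, one of the lower genes, averaged 0.0626 FPKM in MII oocytes and 27.5 FPKM in 2-cell embryos. Lhx8, a homeobox factor of primordial follicle oocytes, went from 93.3, 91.5, 76.02 and 90.2 FPKM to 0, 0.171, 0.232 and 0.0251 FPKM, and Obox7 from 160.1 to 0.0844 FPKM. Obox6 rose from 154 ± 47.3 to 1060.1 ± 147 FPKM and Taf4b, a TFIID subunit of germ cells, from 7.88 ± 1.997 to 19.2 ± 2.69 FPKM. Tbpl2, the TATA-binding protein of oocytes, was at 25.2, 25.9, 26.3 and 18.6 FPKM and was listed at 0 in all 4 morulae.

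Genes of proteins that store, translate and destroy maternal RNA had mixed changes. Of 27 tested genes of maternal RNA decay, 14 (51.9%, against 43.9% of all genes) were lower and 7 (25.9%, against 41.0%) higher (median -0.49). The lower genes included Btg4, the deadenylase subunit Cnot6l (52.1, 61.2, 64.2 and 83.2 FPKM, then 1.47, 1.16, 1.15 and 1.701 FPKM) and the decapping enzyme Dcp2 (38.3, 36.9, 41.8 and 41.9 FPKM, then 1.24, 1.22, 0.916 and 1.53 FPKM). Neither overlapped between stages. Of 20 tested genes of stored RNA translation, 14 were lower and 3 higher (median -2.38). Dazl, a germ cell protein that binds the RNAs of other germ cell genes, was at 383, 420.4, 367 and 449.7 FPKM and then at 2.76, 1.998, 2.998 and 2.16 FPKM. Its log2 fold change was -6.87 (SE 0.16, adjusted p = 2.56e-10). Genes of MII arrest and M phase, 33 tested, were also nearer to the shares of all genes, lower in 17 and higher in 10 cases (median -0.54). Fbxo43, the Emi2 protein that holds the egg at MII, fell from 155 to 0.413 FPKM and the kinase gene Mapk3 from 93.98 to 0.894 FPKM. Ccnb1, cyclin B1, fell by 0.83, and Cdc20, which activates the complex that degrades cyclin B, rose from 75.5 ± 16.8 to 1024 ± 288 FPKM. The kinase Mos, which keeps up MII arrest, averaged 257 FPKM in MII oocytes, but only 0.863 to 2.18 FPKM in 2-cell embryos, and did not reach the filter for a test.

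For Btg4, which has a single promoter entry, the 250 bases before the annotated start are shown so that the control sequence of an RNA made in the oocyte can be set beside that of embryonic genes below (RefSeq, GRCm38.p6, chr9:51115751-51116000, plus strand). Capitals mark the CCAAT box, 50 bases upstream.
Btg4: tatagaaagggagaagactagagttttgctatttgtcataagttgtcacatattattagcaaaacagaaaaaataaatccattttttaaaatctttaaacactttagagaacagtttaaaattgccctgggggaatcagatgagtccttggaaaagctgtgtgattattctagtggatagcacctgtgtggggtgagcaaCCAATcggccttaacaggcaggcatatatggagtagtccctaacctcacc

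Genes of the 2-cell burst fell as well. Of the 28 tested members of that list, 3 counted as present in MII oocytes. In morulae 25 were lower and 3 higher (median -4.16). Zscan4d, a zinc finger protein whose family marks the 2-cell stage, was at 272, 356, 326 and 188 FPKM and then at 0.0765, 0.0817, 0.805 and 0.587 FPKM (log2 fold change -7.69, SE 0.25, adjusted p = 9.28e-10). It had averaged 0.5505 FPKM in MII oocytes. Zfp352, another zinc finger gene of that stage, was at 368, 562, 591 and 334 FPKM and then at 2.32, 0.163, 10.9 and 5.42 FPKM, against 0.0107 FPKM in oocytes (log2 fold change -6.76, SE 0.58, adjusted p = 8.63e-07). Its morulae differed from each other more than those of Zscan4d did. Tcstv1 (137, 147, 138 and 208 FPKM, then 0.166, 0.354, 0.748 and 0.955 FPKM) and Tcstv3 (248, then 2.63 FPKM on average) fell by 6.68 and 6.16. Both had been present in MII oocytes, at 62.3 and 24.9 FPKM. Zscan4c was listed at 0 in all 4 morulae. The 3 members that rose were Pramel7 (16.5 to 27.1 FPKM, then 185 to 352 FPKM), Pramel6 (13.5 to 28.3, then 31.5 to 159 FPKM) and Tdpoz2 (5.97 to 15.9, then 12.5 to 46.5 FPKM). The libraries of Tdpoz2 overlapped between stages. Copies in these families are alike: 49.6% of the words of Zscan4d occur in other genes, so values for single copies are uncertain.

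The promoters of this list are shown because they had a letter pattern that the others seldom had. TATAAA, the core of the TATA box, searched on both strands in the 250 bases before the start, was in 46.7% of the 15 promoters that matched the list. A further group held 92 promoters of genes that fell 4-fold or more. These genes were below 1 FPKM in all MII libraries or without an entry there. The group shares promoters with the list, those of Zscan4d and Zscan4c among them, so the groups are not separate. TATAAA was in 26.1% of these 92. It was in 8.89% of 2047 promoters of genes that fell as much and were present in oocytes, in 7.10% of 1832 promoters of genes that rose as much, and in 12.4% of all 32851 promoters of the table. CCAAT was in 66.7% of the 15, against 33.8% of all. The other words searched were CCGGAAG (below), GGGCGG, CGCATGCG and GGAATG, and none of these words contains another. Median GC content was 44.8% in the 15 and 59.2% in the promoters of genes that rose 4-fold or more. Members of the list share ancestry, so their promoters are not independent, and a match is a description and not a site in use. The pair printed was taken as the 2 list members of smallest p with a single promoter entry and a match. Both carry TATAAA and, closer to the start, CCAAT (in capitals): Zscan4d at 65 and 53 bases upstream (chr7:11166149-11166398, minus strand), and Zscan4c at 54 and 42 bases upstream (chr7:11005495-11005744, plus strand; RefSeq, GRCm38.p6).
Zscan4d: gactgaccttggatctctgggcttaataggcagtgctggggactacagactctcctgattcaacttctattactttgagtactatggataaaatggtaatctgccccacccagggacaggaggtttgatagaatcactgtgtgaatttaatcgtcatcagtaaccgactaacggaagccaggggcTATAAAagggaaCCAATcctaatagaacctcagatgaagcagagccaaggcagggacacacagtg
Zscan4c: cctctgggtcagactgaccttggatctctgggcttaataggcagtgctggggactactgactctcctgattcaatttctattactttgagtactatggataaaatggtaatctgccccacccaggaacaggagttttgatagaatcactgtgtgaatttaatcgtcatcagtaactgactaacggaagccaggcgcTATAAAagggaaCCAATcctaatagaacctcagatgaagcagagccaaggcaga

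Against these falls stood a broad rise of RNAs that encode the machinery of growth. All 76 tested genes of cytosolic ribosomal proteins were higher in morulae, with a median log2 fold change of 4.11. Their summed level went from between 1351 and 1944 FPKM in the 2-cell libraries to between 19002 and 29645 FPKM in the morulae. Rpl4 was at 94.7, 142, 127 and 143 FPKM and then at 2839, 2592, 2864 and 2472 FPKM (log2 fold change 4.41, SE 0.16, adjusted p = 1.68e-09). Rpl6 was at 12.4, 15.5, 20.5 and 18.5 FPKM and then at 1045, 815, 891 and 810.2 FPKM, and Rpl5 averaged 2.08 and then 111 FPKM. Every morula lay above every 2-cell library for these genes. Ribosomal protein genes have many processed pseudogenes. Between 15.2% (Rpl4) and 48.9% (Rpl5) of their words occur in other annotated genes, and how the authors counted reads that match several places is not given. Ribosome biogenesis followed with 53 of 55 genes higher (median 2.55), among them Ftsj3 (7.48, then 138 FPKM), the RNA helicase Ddx21 and the GTPase Gnl2. Translation factors were higher in 43 of 48 cases (median 2.75). Eif3l, a subunit of the initiation factor that binds the small ribosomal subunit, was at 3.64, 2.31, 3.898 and 4.29 FPKM and then at 261, 254, 237 and 274 FPKM, and Eef1g rose by 5.58. Splicing factors were higher in 38 of 44 cases (median 1.57), led by Snrpb (6.58, then 306 FPKM), Srsf6 and Srsf2.

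RNAs of genes for protein folding and turnover rose along with those for protein synthesis. Proteasome genes were higher in 31 of 32 cases (median 3.39). The remaining subunit, Psmb6, had a log2 fold change of 0.46 (adjusted p = 0.079). Psmd13, a subunit of the lid that receives tagged proteins, was at 0.962, 0.783, 0.739 and 1.42 FPKM and then at 92.8, 85.4, 82.3 and 82.4 FPKM (log2 fold change 5.47, SE 0.16, adjusted p = 6.06e-10), and Psmc1, an ATPase of its base, rose by 3.85. Chaperones rose in 19 of 22 cases (median 2.95), with Hspa8, the constitutive heat shock protein, at 11.6, 16.8, 19.3 and 13.1 FPKM and then at 1024, 1135, 901 and 1097 FPKM, and with the chaperonin subunits Cct5 and Cct4 at log2 fold changes of 4.28 and 4.42. Lysosomal genes rose in 23 of 25 cases (median 2.82). The proteases Ctsz and Ctsc went from 1.304 to 100.4 FPKM and from 8.35 to 538 FPKM. Genes of the respiratory chain that lie in the nucleus rose in 67 of 75 cases (median 2.41). Cyc1, cytochrome c1, was at 8.72, 5.32, 8.58 and 11.01 FPKM and then at 263, 277, 256 and 199 FPKM, and the complex I subunits Ndufv1 and Ndufa9 rose by 3.31 and 4.79. The 12 tested proteins encoded in mitochondria were higher in 6 cases and lower in 1, mt-Cytb (median 0.57). For mt-Nd1 the libraries gave 3183, 3087, 5092 and 4120.2 FPKM and then 8474, 6785, 10911 and 7151 FPKM, a log2 fold change of 1.11. Summed over the 13 listed protein genes, the level was 14170 to 23501 FPKM in 2-cell libraries and 22426 to 32403 FPKM in morulae, with overlap. The mitochondrial chromosome as a whole, which also holds genes outside this list, made up 6.09% ± 1.23 of the summed FPKM in 2-cell embryos and 11.5% ± 1.20 in morulae. That share did not overlap between stages (exact two-sided permutation p = 0.0286, n = 4 and 4).

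The promoters of ribosomal protein and proteasome genes are shown because these groups rose almost without exception. CCGGAAG, the core that ETS-family factors bind, searched on both strands of the same 250 bases, was in 28.8% of 66 promoters of ribosomal protein genes and in 35.7% of 28 promoters of proteasome genes. It was in 18.4% of promoters of all genes that rose 4-fold or more, in 8.70% of those of genes that fell as much and were present in oocytes, in 13.9% of promoters of tested genes and in 6.91% of all promoters. None of the 15 promoters of the 2-cell list held it. In the examples, taken by the same rule as before, capitals mark CCGGAAG or its reverse complement, at 91 bases upstream in Rps6 (chr4:86857368-86857617, minus strand) and at 28 bases upstream in Psmc1 (chr12:100109952-100110201, plus strand), and a CCAAT box further upstream in Psmc1 (RefSeq, GRCm38.p6).
Rps6: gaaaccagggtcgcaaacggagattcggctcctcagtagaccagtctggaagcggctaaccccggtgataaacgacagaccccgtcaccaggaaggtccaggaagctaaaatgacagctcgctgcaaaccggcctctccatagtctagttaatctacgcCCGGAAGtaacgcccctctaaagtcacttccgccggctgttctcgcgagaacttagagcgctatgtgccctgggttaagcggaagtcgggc
Psmc1: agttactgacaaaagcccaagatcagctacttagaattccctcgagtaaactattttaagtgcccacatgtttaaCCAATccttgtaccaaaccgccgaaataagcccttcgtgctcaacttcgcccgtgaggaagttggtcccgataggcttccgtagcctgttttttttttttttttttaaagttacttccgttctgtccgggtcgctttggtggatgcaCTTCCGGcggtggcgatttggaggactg

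**Figure D2:**
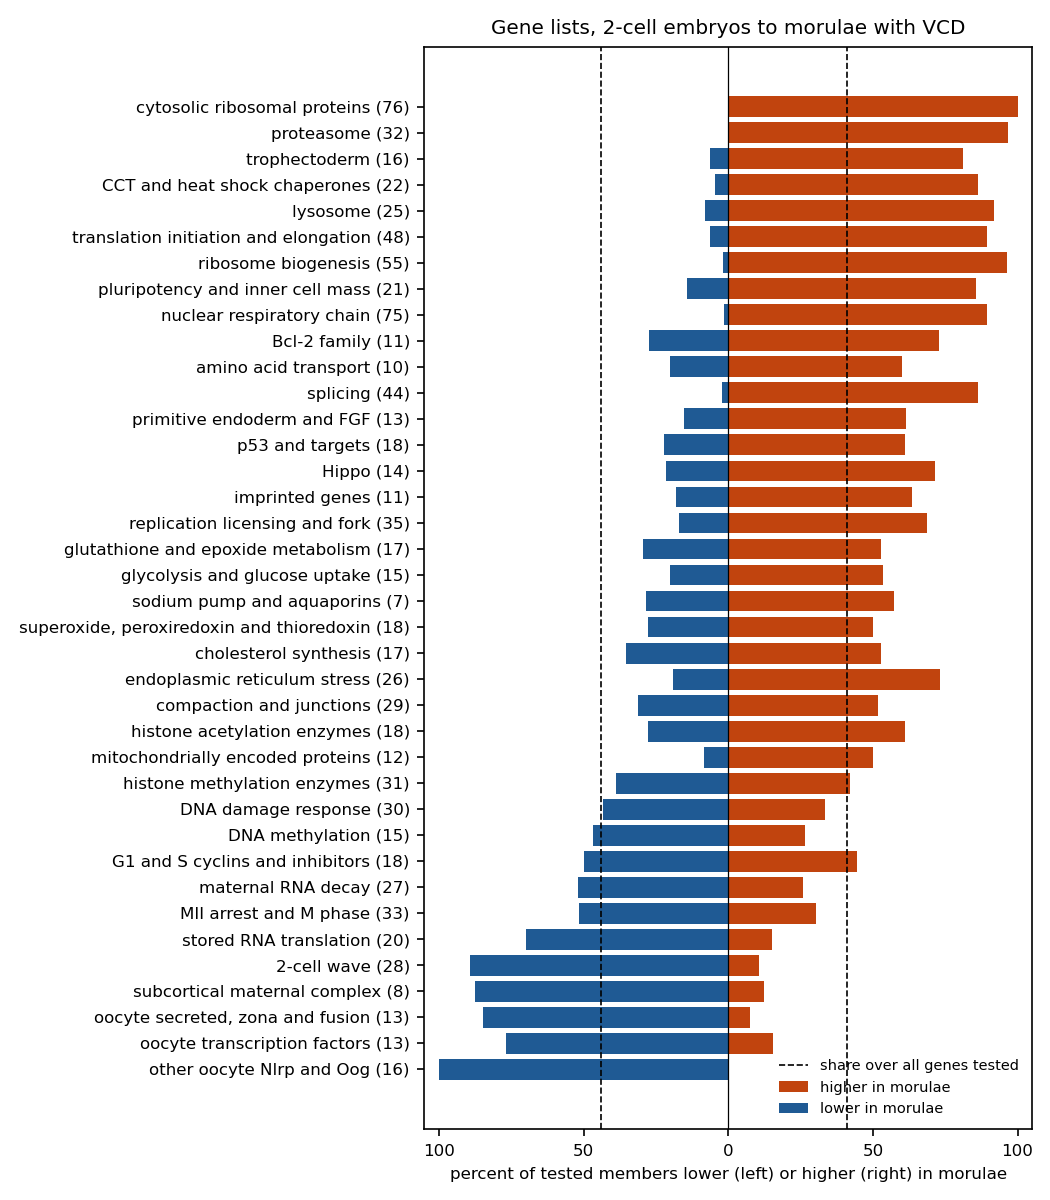
Share of the tested members of each gene list that were lower (blue, to the left) or higher (red, to the right) in morulae with VCD, in percent, with the number of tested members in brackets and lists ordered by median log2 fold change. Dashed lines show the shares over all genes tested, 43.9% lower and 41.0% higher. Ribosomal proteins, the proteasome and ribosome biogenesis lie almost wholly to the right, and oocyte lists and the 2-cell burst almost wholly to the left.

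Genes of several enzymes, and of proteins of other kinds, had the largest single rises. Vnn1, a pantetheinase of the cell surface, was at 0.137, 0.179, 0.1099 and 0 FPKM in 2-cell embryos and at 259.7, 303, 183 and 364 FPKM in morulae (log2 fold change 7.93, SE 0.21, adjusted p = 3.3e-10). Isyna1, the enzyme that makes inositol phosphate from glucose 6-phosphate, was at 4.33, 4.62, 5.47 and 2.96 FPKM and then at 1141, 1279, 966 and 1000.05 FPKM (log2 fold change 7.69, SE 0.18, adjusted p = 2.62e-10). For both genes the stages were far apart and the libraries of a stage alike. Bhmt, which remakes methionine with a methyl group from betaine, was at 0.346, 0.175, 0.258 and 0.137 FPKM and then at 160.5, 333, 132 and 205 FPKM. Phgdh, which opens the pathway to serine, averaged 5.61 and then 504 FPKM, Sord, sorbitol dehydrogenase, 7.03 and then 727 FPKM, and Fbp2, a fructose bisphosphatase, 1.68 and then 320.01 FPKM. The zinc importer gene Slc39a4, the dipeptidase gene Cndp2, the ferritin receptor gene Timd2, the proteoglycan gene Sdc4, the inhibitor of helix-loop-helix factors Id3, Edf1, Lrpap1 and Eif3m completed the 15 with Cldn4, at log2 fold changes from 6.23 to 7.15. Id3 had a library that stood apart: its morulae were at 399, 166, 165 and 187 FPKM. The promoter of Isyna1 is shown as that of the most abundant of these RNAs in morulae, with a CCAAT box at 159 and CCGGAAG at 93 bases upstream, both on the other strand and in capitals (RefSeq, GRCm38.p6, chr8:70594231-70594480, plus strand).
Isyna1: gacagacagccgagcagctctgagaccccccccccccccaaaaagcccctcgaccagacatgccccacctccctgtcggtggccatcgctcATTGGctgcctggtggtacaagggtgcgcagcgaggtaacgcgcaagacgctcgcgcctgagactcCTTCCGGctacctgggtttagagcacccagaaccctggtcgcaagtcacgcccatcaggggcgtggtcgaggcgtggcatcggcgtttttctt

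RNAs of energy and lipid metabolism changed gene by gene. Early cleavage embryos feed on pyruvate and lactate and take up more glucose later. Of 15 tested genes of glycolysis and glucose uptake 8 were higher and 3 lower (median 0.80; 5 lower under median-of-ratios scaling). Ldhb, lactate dehydrogenase B, fell from 736, 689, 555 and 649 FPKM to 9.63, 5.202, 7.49 and 8.62 FPKM (log2 fold change -6.26, SE 0.19, adjusted p = 6.51e-10), while Pgam1 and the hexokinase gene Hk2 rose by 3.68 and 2.05. Slc2a3, a glucose carrier, rose from 0.851 to 1.91 FPKM to 5.56 to 14.4 FPKM, and the carrier gene Slc2a1 stood at 24.3 ± 3.501 and 26.9 ± 6.48 FPKM (adjusted p = 0.585). Of 17 cholesterol synthesis genes 9 were higher and 6 lower: Msmo1 and Lss rose by 2.66 and 2.10 and Nsdhl fell by 2.26. Of 10 amino acid carriers 6 were higher and 2 lower. Slc1a1, for glutamate and cysteine, was at 0.452, 0.452, 0.275 and 0.686 FPKM and then at 18.96, 19.4, 17.6 and 17.5 FPKM. Slc7a11, which exchanges cystine for glutamate, fell from 4.24 to 0.0712 FPKM.

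Genes of the first cell fates were higher in morulae. Of 21 tested genes of pluripotency and the inner cell mass 18 were higher and 3 (Klf17, Lin28a and Spp1) lower (median 2.45). Nanog, a core factor of the inner cell mass, was at 0.0296, 0.451, 0.07103 and 0 FPKM in 2-cell embryos and at 17.8, 29.7, 18.2 and 15.9 FPKM in morulae (log2 fold change 4.21, SE 0.22, adjusted p = 2.06e-08). Pou5f1, which encodes Oct4, was already at 13.3, 9.09, 6.94 and 13.8 FPKM and rose to 24.96, 31.2, 31.2 and 31.6 FPKM (log2 fold change 1.42, SE 0.22, adjusted p = 0.000103). Both separated the stages, Nanog from almost nothing and Pou5f1 from a level already present. Klf5 rose from 2.81 to 82.4 FPKM, Dppa5a from 13.3 to 455 FPKM and Dppa4 from 27.96 to 261 FPKM. Sox2 was at 0 to 0.137 FPKM in 2-cell embryos and 0 to 0.0845 FPKM in morulae and was not tested. Dppa3, the maternal protein Stella, was at 252, 256, 280.4 and 491 FPKM and then at 427, 215, 369.9 and 285 FPKM, with overlapping stages (adjusted p = 0.92), and its sign depended on the scaling.

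Of 16 tested trophectoderm genes 13 were higher and 1, Dppa1, lower (median 3.03). Tead4, the factor that starts the trophectoderm program, was at 0.111, 0.267, 0.192 and 0.408 FPKM and then at 46.1, 46.2, 41.6 and 41.4 FPKM (log2 fold change 5.17, SE 0.16, adjusted p = 6.23e-10). Cdx2, a later factor of that program, was at 0.147, 0, 0.0235 and 0.175 FPKM and then at 1.49, 7.33, 2.399 and 4.75 FPKM (log2 fold change 2.05, SE 0.32, adjusted p = 0.000105). Tead4 was even across the morulae, whereas Cdx2 was low and varied. The keratins of the outer layer, Krt8 and Krt18, were at 22.5, 49.2, 44.9 and 18.7 FPKM and 109, 133, 147 and 74.003 FPKM in morulae, against 0.706 to 2.34 and 0.663 to 3.83 FPKM in 2-cell embryos. Hand1 rose by 5.88. Gata3 was at 6.95, 8.24, 8.02 and 10.6 FPKM and then at 6.09, 16.6, 16.4 and 10.8 FPKM and did not pass (adjusted p = 0.178), but did pass without the first morula library (0.71, adjusted p = 0.0106). Of 14 Hippo genes, the pathway that reads the position of a cell in the embryo, 10 were higher and 3 lower. The activator gene Wwtr1 (TAZ) rose by 4.05 and its relative Yap1 fell from 36.2 to 49.1 to 4.55 to 7.75 FPKM. The kinase gene Stk3 (Mst2) fell by 4.77, and the junction protein gene Amotl2 rose by 4.31. Of 13 genes of primitive endoderm and FGF signalling 8 were higher and 2 lower. Gata6 rose from 1.18 to 19.3 FPKM and the signal inhibitor gene Spry4 fell from 338, 287, 263 and 222 FPKM to 1.29, 0.486, 1.97 and 1.48 FPKM, while Dusp4 rose by 2.46.

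Of 29 tested compaction and junction genes 15 (51.7%) were higher and 9 (31.0%) lower (median 0.63). Cdh1, E-cadherin, the adhesion protein of compaction, was at 6.96, 6.51, 8.53 and 7.96 FPKM and then at 23.1, 30.8, 20.1 and 33.6 FPKM (log2 fold change 1.69, SE 0.20, adjusted p = 9.78e-06). F11r, the junctional adhesion molecule JAM-A, was at 5.38, 6.38, 5.72 and 4.62 FPKM and then at 179, 165, 156 and 227 FPKM, and Rhoa rose by 2.88. The polarity gene Pard3 fell from 27.9, 22.8, 25.6 and 32.99 FPKM to 1.61, 1.59, 1.36 and 1.43 FPKM. Cldn4, a claudin of the trophectoderm seal, was at 0.292, 0.185, 0.351 and 0.528 FPKM and then at 138, 304, 162 and 183 FPKM (log2 fold change 7.15, SE 0.24, adjusted p = 1.05e-09). Of the 7 tested genes that move salt and water into the later cavity, 4 were higher and 2 lower. Aqp3, an aquaporin, was at 0.2901, 0.184, 0 and 0.586 FPKM and then at 25.1, 29.1, 32.97 and 24.4 FPKM. Atp1b1, a chain of the sodium pump, rose by 0.75 (adjusted p = 0.000886). Connexins changed in composition: Gja4, the connexin of the oocyte, fell from 20.6 to 0.444 FPKM, and Gja1 rose from 1.06 to 49.2 FPKM.

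**Figure D3:**
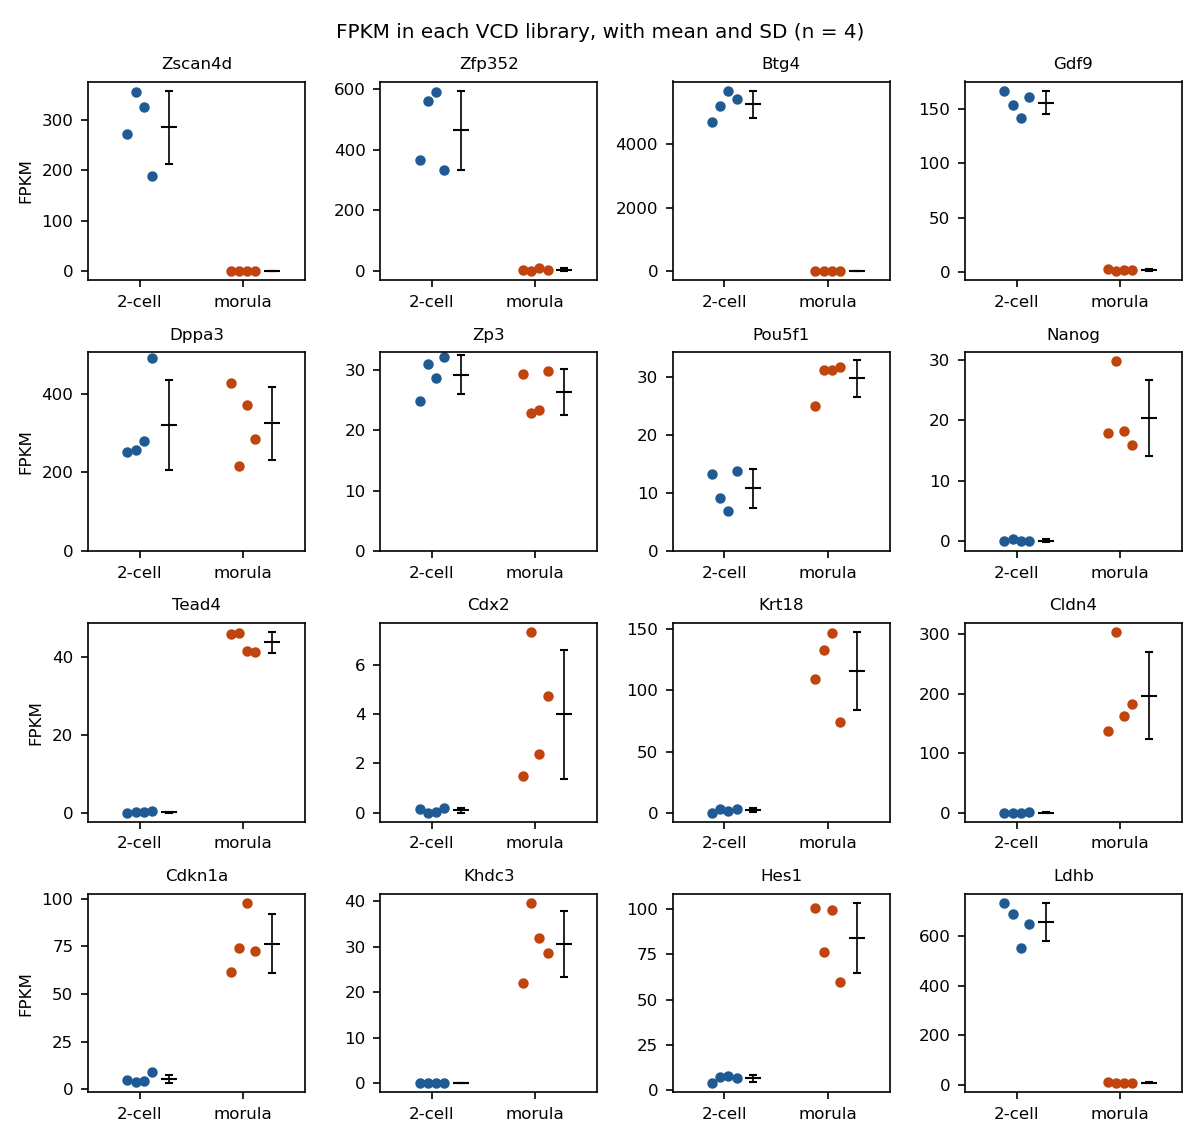
FPKM in each of the 4 2-cell (blue) and 4 morula (red) libraries with VCD for 16 genes, with the mean and SD in black; each panel has its own linear axis from 0. Zscan4d, Zfp352, Btg4, Gdf9 and Ldhb are high only in 2-cell libraries, Nanog, Tead4, Cdx2, Krt18, Cldn4 and Khdc3 only in morulae, and Dppa3 and Zp3 overlap.

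Replication genes were higher in 24 of 35 cases and lower in 6 (median 1.01), with Gins3, Rfc4 and Gins1 rising by 4.53, 3.74 and 3.52. Cyclins and inhibitors of G1 and S were split, 8 higher and 9 lower of 18. Myc rose from 1.81, 1.56, 1.07 and 1.29 FPKM to 59.9, 45.4, 36.7 and 58.8 FPKM and the inhibitor gene Cdkn1a, which encodes p21, from 4.65, 3.61, 4.44 and 8.78 FPKM to 61.4, 73.9, 97.8 and 72.6 FPKM (log2 fold changes 4.38 and 3.64), both without overlap. The E2F factor gene E2f5 fell by 5.94. Of 15 DNA methylation genes 4 were higher and 7 lower. Tet3, the dioxygenase that oxidizes methylcytosine after fertilization, fell from 27.2, 26.9, 24.5 and 30.2 FPKM to 0.3296, 0.578, 1.03 and 0.411 FPKM, Zfp57, which guards imprints, from 392 to 10.6 FPKM, and Uhrf1, which brings Dnmt1 to replicated DNA, from 34.3 to 1.73 FPKM. Dnmt3b rose by 1.32 (adjusted p = 0.000563), and Dnmt3l did not pass (adjusted p = 0.601). Histone methylation enzymes were near the background (13 higher, 12 lower of 31, median 0.09, and -0.22 under median-of-ratios scaling): Kdm6a and Kdm1b fell by 2.59 and 3.05 and Prmt5 rose by 3.06. Histone acetylation enzymes were higher in 11 and lower in 5 of 18 (7 and 5 under median-of-ratios scaling), and Hdac1 went from 13.2 to 181 FPKM. Of 11 tested imprinted genes 7 were higher and 2 lower. Igf2r, expressed from the maternal copy in most tissues, was at 0.408, 0.392, 0.416 and 0.383 FPKM and then at 17.03, 11.8, 15.96 and 16.4 FPKM, and Mest fell from 10.98 to 0.532 FPKM.

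Stress and survival genes are given because all these embryos had been exposed to VCD, but a change between stages does not measure that exposure. With PBS, 11 genes of the p53 list were higher and 4 lower, and 8 and 3 of the Bcl-2 list. The PBS counts were 17 and 4 for endoplasmic reticulum stress and 9 and 7 for glutathione and epoxide genes. They were 10 and 6 for peroxide and superoxide genes and 11 and 11 for DNA damage genes. Differences between agents were not tested for these lists. Over all genes 84.8% were called, and the lists of p53, glutathione, peroxide and DNA damage genes were called no more often than that. Of 18 genes of p53 and its targets 11 were higher and 4 lower (median 1.44). Trp53 itself was at 17.6, 12.4, 8.61 and 15.6 FPKM and then at 25.9, 34.9, 37.02 and 34.1 FPKM (log2 fold change 1.25, SE 0.23, adjusted p = 0.00032). Phlda3, a target gene that restrains Akt, was listed at 0 in all 4 2-cell libraries and at 21.9, 44.7, 57.3 and 47.9 FPKM in morulae. The p53 inhibitor gene Mdm4 fell from 295 to 14.03 FPKM and Mdm2 did not pass (adjusted p = 0.704). Of 11 Bcl-2 genes 8 were higher and 3 lower, with Bad at 0, 0.1198, 0.0264 and 0.281 FPKM and then at 21.99, 19.6, 21.2 and 20.1 FPKM, and Bax rising from 4.49 to 54.3 FPKM. Endoplasmic reticulum stress genes were higher in 19 and lower in 5 of 26 cases (12 and 5 under median-of-ratios scaling). Hspa5, the chaperone BiP, rose by 1.63, Xbp1 by 2.25 and Dnajb11 by 3.15. Of 17 glutathione and epoxide genes 9 were higher and 5 lower. Gsto1 rose from 1.28, 0.464, 0.809 and 1.89 FPKM to 77.9, 113, 103 and 64.7 FPKM, Ephx1, an epoxide hydrolase, from 0 to 0.321 FPKM to 4.603 to 18.4 FPKM, and Ggct fell from 66.2 to 0.881 FPKM. Among 18 genes against peroxide and superoxide 9 were higher and 5 lower: Prdx6 and Prdx3 rose by 3.92 and 3.73, Prdx2 fell from 448, 422, 461 and 494 FPKM to 30.8, 34.5, 46.4 and 32.01 FPKM, and Sod2 rose by 1.34. DNA damage response genes were near the background with 10 higher and 13 lower of 30 (median -0.12, and 0.20 under quantile normalization). Chek1 fell by 3.14, and Chek2 and Parp1 rose by 3.41 and 3.66.

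Oocytes use their own forms of several housekeeping proteins, and 15 pairs of such a form and a more widely expressed relative were followed. The oocyte form was lower in morulae in 14 pairs, against 43.9% of all genes tested, and in 8 of these the relative was higher. Of the 15 relatives 8 were higher and 6 lower, which is not far from the shares over all genes (41.0% and 43.9%). Pabpc1l, the poly(A)-binding protein of oocytes, made up 94.6% ± 3.17 of the summed FPKM of Pabpc1l and Pabpc1 in 2-cell embryos and 0.20% ± 0.14 in morulae (SD, n = 4). The share of Npm2 in Npm2 plus Npm1, chaperones of histones, went from 79.0% to 2.06%. The share of Wee2 in Wee2 plus Wee1, kinases that inhibit CDK1, went from 98.9% to 4.76%, and that of Tet3 in Tet3 plus Tet1 from 96.1% to 4.37%. No pair of these overlapped between stages. In 5 pairs both forms were lower, among them Ldhb with Ldha and Bcl2l10 with Bcl2l1. Calls for Wee1, Ldha and Tbp were lost under several alternatives, and H1f0, the relative of H1foo, did not pass (adjusted p = 0.0611) but did without the second morula library (-1.09, adjusted p = 0.000235). Taf4b was the exception: its share of Taf4b plus Taf4 rose from 28.3% ± 3.15 to 82.0% ± 3.33.

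**Figure D4:**
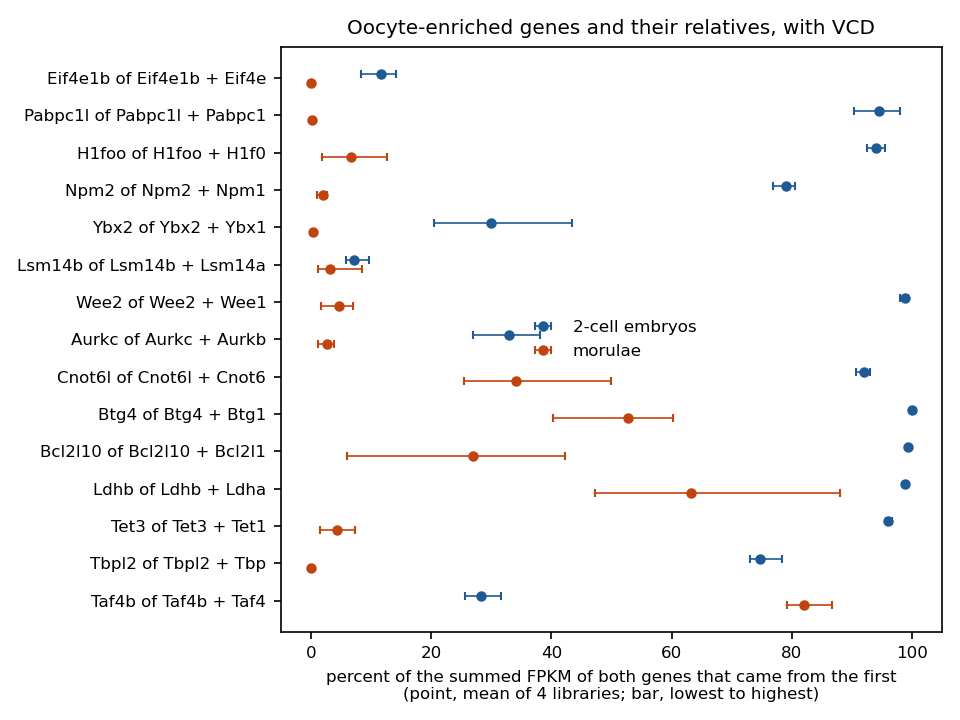
For each of 15 pairs, the percent of the summed FPKM of both genes that came from the oocyte-enriched form in 2-cell embryos (blue) and morulae (red) with VCD; points are means of 4 libraries and bars run from the lowest to the highest. The share is lower in morulae for 14 pairs, from 94.6% to 0.20% for Pabpc1l, and higher for Taf4b.

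Among the genes that passed the filter, the direction of change differed with presence in the oocyte. The filter asks for 1 FPKM in at least 4 of the same 8 libraries. A gene absent from oocytes and low in 2-cell embryos could enter only through the morulae, and an oocyte RNA lost by then only through 2-cell libraries. How far the filter sets the shares below was not tested. Of 7888 tested genes that reached 1 FPKM in 3 or more of the 5 MII libraries with VCD, 54.2% were lower and 30.6% higher in morulae. Of 3762 genes below 1 FPKM in all 5, or without an entry in the oocyte table (586 genes), 24.2% were lower and 60.8% higher. Of the 3176 of these with an entry, 21.5% were lower and 64.1% higher. The first class held 91.4% ± 1.08 of the summed FPKM of the genes tested in 2-cell embryos and 79.0% ± 0.34 in morulae, the second 7.54% ± 1.06 and 17.3% ± 0.47 (SD, n = 4). Oocyte and embryo tables were made separately, so oocyte levels served to sort genes and are otherwise given only as values beside those of embryos, with no test across tables. In the second class 308 genes fell 4-fold or more, of which 127 had no oocyte entry, and 1120 rose as much.

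Most of this change was also seen without VCD. In the PBS libraries, none of which is shared with the comparison above, 5272 of the same 12355 genes were higher and 5538 lower in morulae (87.5% called). Of the genes higher with VCD, 96.9% were higher with PBS, and of those lower with VCD, 97.4% were lower with PBS, and no gene was called in opposite directions. Counts for the 12 tested proteins encoded in mitochondria differed. With VCD 6 were higher and 1 lower (median 0.57), and with PBS 5 were higher and 5 lower (median -0.13). The difference for that list was not tested. Across genes, which are not independent replicates, the log2 fold changes correlated at 0.992 with a slope of 0.98. The difference itself was tested as an interaction of agent and stage in 16 libraries. None of 14144 genes passed in limma (smallest adjusted p = 0.176), and 502 (3.55%) had an unadjusted p below 0.05. For 74.6% of the 8457 genes at a mean of 5 FPKM or more in some group, the 95% interval of the difference lay within 2-fold either way, and for the rest it did not, so smaller or noisier differences were not detectable.

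The 5 genes of smallest p in that test are given as values. Hes1, a repressor downstream of Notch, was at 3.78, 7.44, 7.77 and 7.01 FPKM in 2-cell embryos and at 100.4, 76.5, 99.4 and 60.04 FPKM in morulae with VCD, and at 7.06 to 21.05 and 20.97 to 50.99 FPKM with PBS. Its log2 fold change was 3.51 with VCD and 1.33 with PBS (difference 2.19, SE 0.44, adjusted p = 0.429). Gclm, the modifier subunit of the first enzyme of glutathione synthesis, was at 2.06, 1.896, 1.85 and 2.75 FPKM and then at 11.8, 17.4, 13.2 and 10.2 FPKM with VCD, and at 2.85 to 3.35 and 6.85 to 9.34 FPKM with PBS (difference 1.07, SE 0.22, adjusted p = 0.429). Both rose under either agent, with non-overlapping morulae between agents, and neither difference passed in this fit. Thap11, a zinc finger protein of embryonic stem cells, fell by 1.03 with VCD and by 2.21 with PBS (difference 1.18, adjusted p = 0.188). The predicted genes Gm13273 and Gm25332 had differences of -2.77 and 2.79 (adjusted p = 0.176 each). Gm25332 passed with a pseudocount of 0.1 and without the first 2-cell library with VCD, where Halr1 did too, and Gm13273 passed without the fourth morula library with VCD. Khdc3, described above, changed by 4.91 with VCD and 3.49 with PBS (difference 1.42, SE 0.30, adjusted p = 0.429).

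**Figure D5:**
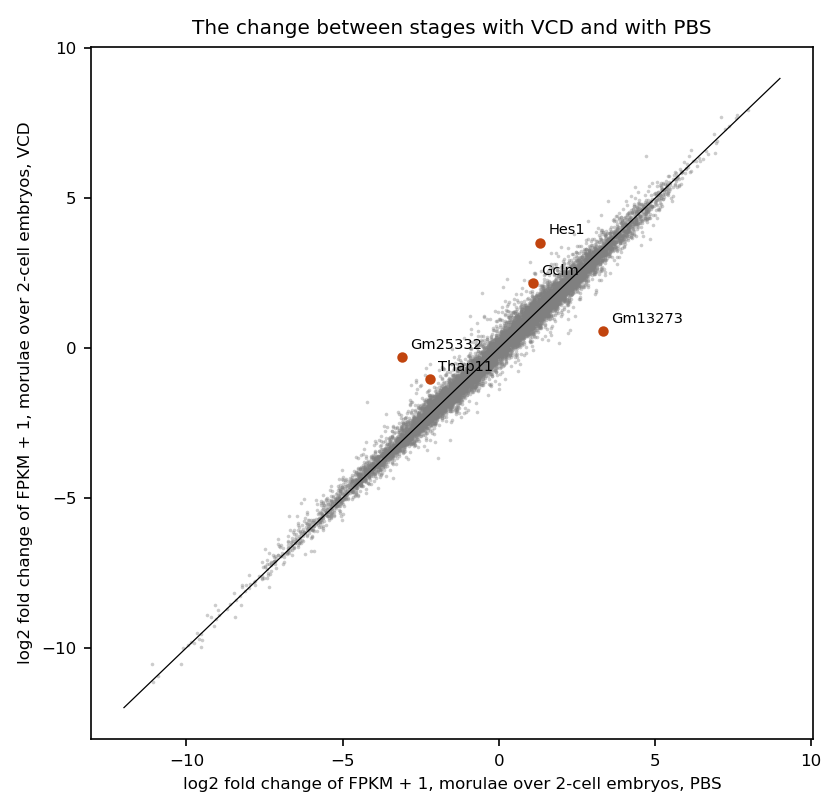
Log2 fold change of FPKM + 1 between morulae and 2-cell embryos with PBS (x axis) and with VCD (y axis), 1 point per gene of the 12355 tested, with the line of equal change. The points follow the line (correlation 0.992 across genes), and the 5 labelled genes of smallest interaction p lie off it without passing the test.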

How the data were processed

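RNA was measured by Smart-seq2 in 25 libraries of mouse oocytes and embryos, grouped by their labels. The reads went through TopHat2 2.0.12 and Bowtie2 2.2.3, per the submitters' processing notes, where the build is entered as galGal4, the chicken genome. All gene identifiers in the tables were mouse Ensembl identifiers, so no coordinates were taken from that entry. No source used here names the counting tool or the annotation. The authors deposited FPKM in separate tables for oocytes (25158 genes) and embryos (34228 genes, 34065 matched to a symbol by identifier), and their values were used as deposited. A change in the most abundant genes shifts the FPKM of all others.

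The main test was limma 3.58.1 (R 4.3.3) with a variance trend on log2(FPKM + 1), genes reaching 1 FPKM in at least 4 of the 8 libraries, two-sided, with a Benjamini-Hochberg adjusted p below 0.05; every adjusted p of a gene comes from it. Fold changes on that scale understate those of low genes. No fold is given against a group at 0. Library measures were compared by exact permutation over 70 arrangements. The interaction used all 16 embryo libraries. Replicate numbers were not used to pair samples. FPKM times exon length (GENCODE M21) fell on whole reads, within 0.01, for 90.6% to 91.5% of the values under 200 reads in these 8 libraries, which gave the depth. Reads without molecular identifiers are not independent molecules, so depth covers counting error only. Recovered reads were used for depth and for voom, an alternative added after seeing the data.

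Named genes are the 15 largest rises and falls (adjusted p below 0.05, no overlap, mean of 5 FPKM or more, no predicted or clone name), the 3 members of smallest p per list, a panel, the paralog pairs and the 5 genes of smallest interaction p. Other members of the lists are named where they stand against their list or beside a named gene, and were chosen after their values were seen; results for 2 genes are not reported here. The comparison, lists and panel were chosen with earlier results of these data known, and no p was adjusted over a list. Promoters (RefSeq, GRCm38.p6) matched 8434 tested symbols. In simulated data (9735 genes, 100 changed per size), 69% of 2-fold and 96% of 4-fold changes were recovered. Of 172 calls in those data, 7 were false. Recovery where most genes change, as between these stages, was not tested.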

Additional observations from a re-analysis of the deposited data

Results flagged for a closer look

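Of 384 groups of 4 libraries examined for the named genes, 22 had a library that stood apart from the other members of its group, by a gap that is above Dixon's 95% critical share of the group's range. Chance alone gives about 5% of groups such a library. The 2-cell libraries with VCD held 0, 1, 2 and 5 of these values and the morulae 4, 4, 5 and 1.

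High values in morulae were as follows. Id3 was at 399 FPKM in the first morula library and at 165 to 187 FPKM in the others, and Izumo1r was at 0.150 FPKM in the first morula library and at 0 FPKM in the others. Ctsz was at 119 FPKM in the fourth morula library and at 92.3 to 96.3 FPKM in the others, and Slc9a3 was at 0.166 FPKM in the third morula library and at 0 FPKM in the others. Gja1 was at 82.3 FPKM in the second morula library and at 37.4 to 39.1 FPKM in the others, and Rfc4 was at 78.2 FPKM in the second morula library and at 62.6 to 64.2 FPKM in the others. Gpx6 was at 0.102 FPKM in the third morula library and at 0 FPKM in the others, and Dnmt3l was at 5.86 FPKM in the third morula library and at 2.85 to 3.002 FPKM in the others. Hspa5 was at 97.4 FPKM in the third morula library and at 65.9 to 68.8 FPKM in the others, and H1f0 was at 27.7 FPKM in the second morula library and at 7.94 to 11.2 FPKM in the others. Lsm14b was at 0.655 FPKM in the third morula library and at 0.0440 to 0.1001 FPKM in the others. Of these, Izumo1r, Slc9a3 and Gpx6 were listed at 0 in the other morulae and at a trace level in the library named.

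High values in 2-cell embryos were as follows. Tcstv1 was at 208 FPKM in the fourth 2-cell library and at 137 to 147 FPKM in the others, and Ddx21 was at 5.22 FPKM in the third 2-cell library and at 3.41 to 3.60 FPKM in the others. Slc7a6 was at 0.605 FPKM in the fourth 2-cell library and at 0.442 to 0.464 FPKM in the others, and Gja1 was at 1.80 FPKM in the third 2-cell library and at 0.737 to 0.896 FPKM in the others. Nanog was at 0.451 FPKM in the second 2-cell library and at 0 to 0.0710 FPKM in the others, and Dppa3 was at 491 FPKM in the fourth 2-cell library and at 252 to 280.4 FPKM in the others. The low libraries were fewer. Wee2 was at 402 FPKM in the fourth 2-cell library and at 592 to 628 FPKM in the others, and Pou5f1 was at 24.96 FPKM in the first morula library and at 31.2 to 31.6 FPKM in the others. Eif4e was at 237 FPKM in the second morula library and at 380.5 to 396 FPKM in the others, and Ldha was at 1.31 FPKM in the first morula library and at 5.55 to 5.81 FPKM in the others. Tbpl2 was at 18.6 FPKM in the fourth 2-cell library and at 25.2 to 26.3 FPKM in the others. Leaving out the second morula library brought H1f0 past the threshold, as given in the report, and leaving out any library left the calls for Id3, Wee2, Tcstv1, Izumo1r, Gja1, Nanog, Pou5f1, Hspa5, Eif4e and Lsm14b in place. Dppa3 passed in none of these settings.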

How the results depend on the processing

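A minimum of 10 FPKM left 5158 genes to test and gave 2413 higher and 2225 lower, with 1531 lower by 4-fold or more. Without a filter on low values 31446 genes were tested and 8287 were lower. By 4-fold or more, 3909 genes were lower and 3144 higher with a pseudocount of 0.1 in place of 1, and 3969 and 3230 with voom on recovered reads, chosen after seeing the data; both shrink low values less. After rescaling without mitochondrial genes these were 3674 and 2880. That rescaling also brought each library to a common, higher sum before 1 was added, so low values were shrunk less there too. These counts therefore do not show the effect of leaving out mitochondrial genes alone. Leaving out each library in turn gave 4865 to 5099 genes higher, 5275 to 5412 lower, 2194 to 2312 higher and 2577 to 2635 lower by 4-fold or more. For library measures 3 against 4 libraries cannot go below an exact p of 0.0571, which says nothing about stability: the differences (morulae minus 2-cell embryos) were -1544 to -1209 genes at 1 FPKM, 4.84 to 5.97 percentage points of mitochondrial share and -3.47 to -2.79 points for the 10 most abundant genes.

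For the interaction, 0 genes passed in the main fit and under median-of-ratios scaling or a minimum of 10 FPKM, 1 (Gm25332) with a pseudocount of 0.1, and between 0 and 2 when libraries were left out. No paired analysis was possible for the main comparison because 2-cell libraries carry letters and morulae numbers. A replicate block within stage, pairing VCD and PBS libraries of the same letter or number, called 1 gene, Hes1 (adjusted p = 0.0172). Deviations of same-numbered libraries correlated at -0.14 to 0.15 in 2-cell embryos and -0.05 to 0.35 in morulae, and 3 of 8 libraries (the first 2-cell, the first and the fourth morula library) correlated best with their own number. Not every pair was above 0.1, so the numbers were not taken to pair the samples.

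Of 188 named genes tested, 180 passed, and 3 (Wee1, Ldha and Tbp) lost the call under some alternative; the cause was not tested. Signs turned only for 4 genes that did not pass: Dppa3 (-0.28 median-of-ratios, -0.29 quantile, and -0.12 to 0.25 over the libraries left out), Hba-a1 (-0.026 median-of-ratios, and -0.079 to 0.35 over the libraries left out), Dnmt3l (0.075 quantile) and Gm25332 (-0.66 to 0.13 over the libraries left out). The median of histone methylation enzymes became -0.22 with median-of-ratios scaling and that of DNA damage genes 0.20 with quantile normalization. Depth limits genes near 1 FPKM.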

Other observations

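Some genes were high in the oocyte, low in 2-cell embryos and high again in morulae. Of the genes tested, 18 were at a mean of 5 FPKM or more in MII oocytes with VCD, below 1 FPKM in 2-cell embryos and at 5 FPKM or more in morulae; the pattern and the names were chosen after values were seen, and oocyte levels come from a table made separately. Cldn4, the claudin described above, averaged 29.8 ± 5.00 FPKM in oocytes (SD, n = 5), 0.339 ± 0.143 FPKM in 2-cell embryos and 197 ± 73.7 FPKM in morulae (n = 4 each). Dgat2, which makes triglyceride from diglyceride, averaged 23.3 ± 5.79, 0.477 ± 0.155 and 20.7 ± 2.07 FPKM. Gins3, a part of the replicative helicase, averaged 11.8 ± 0.423, 0.377 ± 0.216 and 30.7 ± 4.44 FPKM. Mtx2, of the mitochondrial outer membrane, averaged 20.4 ± 6.77, 0.771 ± 0.311 and 52.9 ± 7.10 FPKM. Whether tail length took part in the low 2-cell values was not tested.

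Long noncoding RNAs were mostly lower in morulae. Of 548 tested lincRNAs 77.2% were lower and 13.9% higher (median log2 fold change -1.96), and of 198 antisense RNAs 75.8% were lower and 11.6% higher, while 10099 protein-coding genes were split into 41.3% and 43.5%. Reads of an antisense RNA and its partner cannot be told apart without strand. The genes that were below 1 FPKM in oocytes or had no entry in the oocyte table, fell 4-fold or more and averaged 5 FPKM or more in 2-cell embryos numbered 245. Of these 105 had no oocyte entry and 90 were protein-coding. The most abundant of these in 2-cell embryos after Zfp352 were the predicted genes Gm8332 (415 ± 166 FPKM, then 2.54 ± 2.96 FPKM) and Gm20767 (316 ± 67.8 FPKM, then 6.68 ± 8.28 FPKM).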
